A study of Mus musculus with 107 samples.

Results

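The genes described here are 10 markers of neutrophils and of the chemokine axis that recruits them, chosen by symbol and found as 10 of the 50686 genes in the deposited table. They comprise 3 neutrophil products (S100a8, S100a9 and Retnlg), 2 receptors (Cxcr2 and Csf3r), the growth factor G-CSF (Csf3) and 4 chemokines that bind CXCR2 (Cxcl1, Cxcl2, Cxcl3 and Cxcl5). Their RNA was measured in subcutaneous tumors of 12 mouse syngeneic models, in which a mouse cancer cell line grows in an immunocompetent mouse. The models were BNL 1ME A.7R.1 and Hepa 1-6 (hepatocellular carcinoma), Renca and RAG (renal cell carcinoma), LL/2 and KLN205 (lung cancer), CT26.WT and MC38 (colorectal cancer), 4T1 and EMT6 (breast cancer), MBT2 (bladder cancer) and B16-F10 (melanoma). The tumors were 35 taken before any treatment at a volume of about 100 mm3 (Base), 36 non-treated tumors at day 8 (NT) and 36 tumors at day 8 after 7 days of oral lenvatinib (LEN), a multikinase inhibitor of VEGF and FGF receptors, at 10 mg/kg once daily. Each group of model and treatment held 3 tumors, apart from 2 in Base MC38. Mice were 7 weeks old at implantation, each model was a single cell line in a single host strain, and the RAG cells had been adapted to growth in vivo. Hosts were BALB/c mice for BNL 1ME A.7R.1, RAG, Renca, CT26.WT, EMT6 and 4T1, and C57BL/6 mice for LL/2, MC38 and B16-F10. Hepa 1-6 grew in C57L/J, KLN205 in DBA/2 and MBT2 in C3H mice. Hosts of Hepa 1-6 and BNL 1ME A.7R.1 were male and the others female. Differences between models with unlike hosts cannot be told apart from differences of host strain or sex.

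Neutrophils leave the bone marrow and enter tissues along gradients of CXCR2 ligands, small secreted proteins that stromal, myeloid and cancer cells release on inflammatory signals such as IL-1 and TNF acting through NF-kB. G-CSF, acting through its receptor Csf3r, drives the production and release of neutrophils. S100a8 and S100a9 encode the 2 subunits of calprotectin, which fills the cytoplasm of neutrophils and is also made by monocytes and by stressed keratinocytes, and Retnlg encodes a resistin-like protein of mature neutrophils.

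The 4 chemokine genes lie in one cluster on chromosome 5. On GRCm38, GENCODE M21 places Cxcl5 at chr5:90759360-90761624, Cxcl3 at chr5:90786103-90789600, Cxcl1 at chr5:90891241-90893115 and Cxcl2 at chr5:90903871-90905938, all on the plus strand. The 250 bases before the start site of Cxcl1, Cxcl2 and Cxcl3 are shown because NF-kB is a well known regulator of these genes. The sequences are from RefSeq on GRCm38.p6, plus strand, 5′ to 3′, at chr5:90890995-90891244 for Cxcl1, chr5:90903649-90903898 for Cxcl2 and chr5:90785851-90786100 for Cxcl3. Capitals mark matches to the NF-kB consensus on either strand.
Cxcl1: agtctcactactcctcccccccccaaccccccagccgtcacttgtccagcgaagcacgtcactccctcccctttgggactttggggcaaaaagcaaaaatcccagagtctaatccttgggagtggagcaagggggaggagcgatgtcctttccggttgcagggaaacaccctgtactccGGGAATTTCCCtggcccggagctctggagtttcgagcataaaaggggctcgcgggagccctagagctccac
Cxcl2: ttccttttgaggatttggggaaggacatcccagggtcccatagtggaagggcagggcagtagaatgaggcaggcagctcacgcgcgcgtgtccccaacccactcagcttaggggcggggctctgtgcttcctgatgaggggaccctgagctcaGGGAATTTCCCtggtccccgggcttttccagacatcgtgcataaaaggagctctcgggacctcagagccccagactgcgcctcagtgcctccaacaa
Cxcl3: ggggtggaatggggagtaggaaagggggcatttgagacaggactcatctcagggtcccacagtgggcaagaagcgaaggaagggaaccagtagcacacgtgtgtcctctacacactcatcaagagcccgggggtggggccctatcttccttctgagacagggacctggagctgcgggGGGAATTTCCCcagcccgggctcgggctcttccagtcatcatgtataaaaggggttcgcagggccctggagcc
Each of the 3 windows held 2 overlapping matches, 1 on each strand and shifted by 1 base, so that 1 palindrome-like run stands in capitals. The RefSeq starts differ from the GENCODE starts given above for each of the 3 genes, and positions are counted from the RefSeq starts. The run began 71 bases before the start in Cxcl1, 97 bases before it in Cxcl2 and 73 bases before it in Cxcl3. Of the 32851 mouse promoter windows of the same length, 3.90% held a match. None of the windows of the other 5 genes with an entry (S100a8, S100a9, Retnlg, Cxcr2 and Csf3r) held one, which says only that the consensus is not in those windows.

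The other members lie elsewhere in the genome. S100a8 (chr3:90668978-90670035, plus strand) and S100a9 (chr3:90692632-90695721, minus strand) are neighbors on chromosome 3. Retnlg is at chr16:48872621-48874496, Cxcr2 at chr1:74153989-74161246, Csf3r at chr4:126024550-126044440 and Csf3 at chr11:98701263-98703629, each on the plus strand.

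Values are TPM, each gene's share of the transcripts of a tumor, which are scaled for transcript length and so can be compared between genes. TPM keeps no read depth, so the counting precision behind each value is unknown. Every tumor was most like another tumor of its own model, and protein-coding genes took between 27.5% (4T1, LEN replicate 4) and 66.6% of the TPM of a tumor. The label of neutrophil markers was checked against genes outside the list. Ly6g, the surface protein that defines mouse neutrophils, was listed at 0 in 69 of the tumors and reached 1 TPM in 11, of which 9 were the KLN205 tumors (3.11 to 9.09 TPM). Mmp8 and Cd177, which mature neutrophils express, had medians of 0.37 and 0.27 TPM, and the granule genes Mpo and Elane were listed at 0 in 56 and 80 tumors. By contrast S100a8 reached 1 TPM in 104 tumors, S100a9 in 100 and Csf3r in 105. In such bulk samples, fewer cells of a type cannot be told apart from less RNA per cell. The transcripts of Cxcl2 and Cxcl3 share 5.84% and 4.24% of their 50-base words with other genes, those of Cxcl2 with Cxcl3 alone, so reads from these stretches could have been divided between them. For Csf3r the share was 10.5% and for Cxcr2 4.01%, spread over many genes, and for Cxcl5 it was 0.693%, whereas it was 0 for S100a8, S100a9, Retnlg, Csf3 and Cxcl1.

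Before treatment, S100a8, S100a9, Cxcr2 and Csf3r were highest in EMT6 and lay at or next to their lowest in B16-F10. S100a9 was at 70.9, 55.8 and 79.9 TPM in the 3 Base EMT6 tumors, and these values lay above those of MBT2, next in order, at 25.8, 26.8 and 28.8 TPM. S100a9 was lowest in RAG, at 0.75, 0.71 and 0.28 TPM, and next lowest in B16-F10, at 2.51, 2.45 and 1.57 TPM, without overlap. The mean S100a8 level was 35.5 ± 10.0 TPM in EMT6 (SD, n = 3) and 1.77 ± 0.772 TPM in B16-F10 (SD, n = 3). EMT6 did not overlap with its neighbor in the order of S100a8, while the other 10 of the 11 pairs of neighbors overlapped. In Base CT26.WT the S100a8 values were 7.37, 2.96 and 0 TPM.

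Cxcr2, the receptor shared by all 4 chemokines, was at 5.19, 3.91 and 5.04 TPM in Base EMT6. MBT2 followed at 2.77, 2.46 and 2.94 TPM and overlapped with KLN205 at 2.78, 2.02 and 3.11 TPM. Cxcr2 was lowest in B16-F10 (0.167 ± 0.0961 TPM, SD, n = 3) and RAG (0.137 ± 0.0971 TPM, SD, n = 3), which overlapped with each other but not with CT26.WT, next above them. Csf3r, the G-CSF receptor, was the more abundant of the receptors in every group of model and treatment. It was highest in Base EMT6, at 15.1, 13.3 and 16.6 TPM, and lowest in B16-F10, at 1.95 ± 1.23 TPM (SD, n = 3). In RAG it reached 7.04 ± 1.54 TPM (SD, n = 3) although Cxcr2 was close to 0 there.

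Retnlg followed another order. It was at 58.7, 24.4 and 41.0 TPM in Base Hepa 1-6, above every other Base tumor. KLN205 came next at 8.98, 2.58 and 8.50 TPM, and Renca was lowest at 0, 0.51 and 0.35 TPM. EMT6, the model with the highest calprotectin RNA, had only 2.20, 0.74 and 3.35 TPM of Retnlg.

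**Figure D1:**
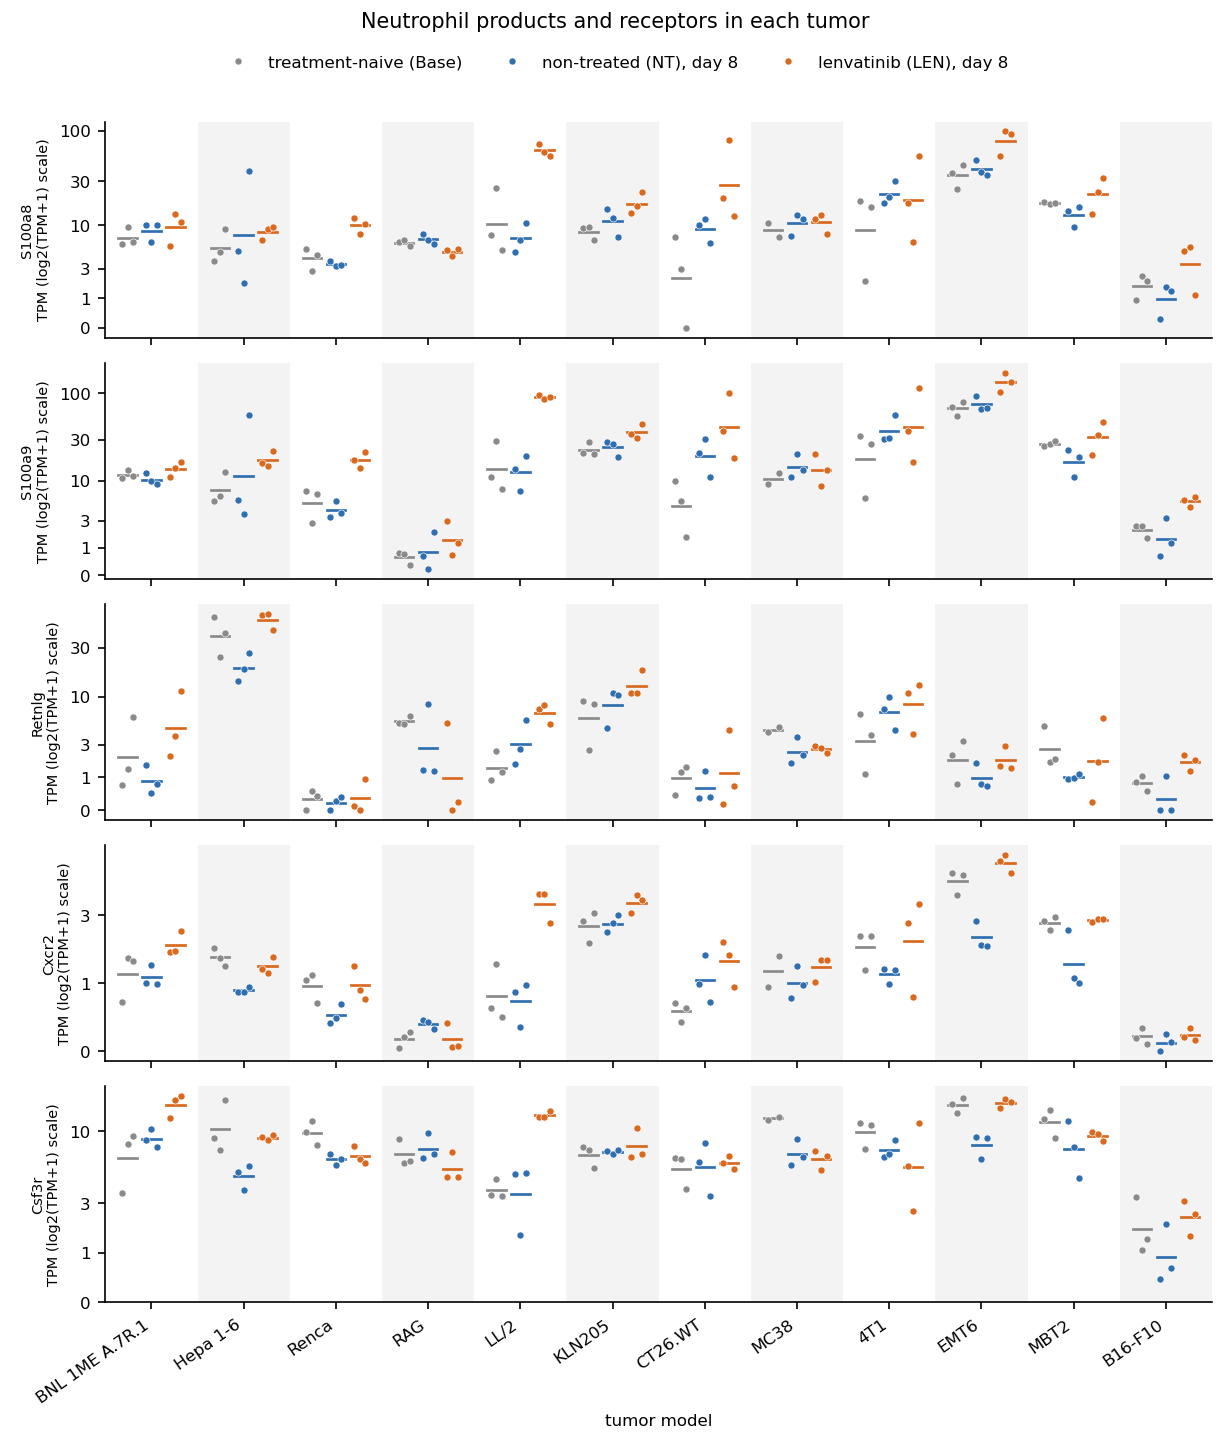
TPM of S100a8, S100a9, Retnlg, Cxcr2 and Csf3r (vertical axes, log2(TPM+1) scale with ticks in TPM) in each tumor of the 12 models (horizontal axis). Points are tumors, colored gray for Base, blue for NT and orange for LEN, and bars are means on the log2 scale. The 3 LEN tumors of LL/2 stand above its NT and Base tumors for S100a8, S100a9, Cxcr2 and Csf3r, and Retnlg is highest in Hepa 1-6.

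RAG tumors differed from the others in the balance of the calprotectin genes. In Base RAG, S100a8 was at 6.42, 6.85 and 5.76 TPM and S100a9 at 0.75, 0.71 and 0.28 TPM. S100a8 exceeded S100a9 in 9 of 9 RAG tumors, with a median ratio of 8.56 (1.76 to 40.1). In the other 11 models it did so in 7 of 98 tumors, with a median ratio of 0.610 and a highest ratio of 1.54, so that RAG did not overlap with them. This pattern was noticed in the values and was not tested. No 50-base word of either transcript is shared with another gene.

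**Figure D2:**
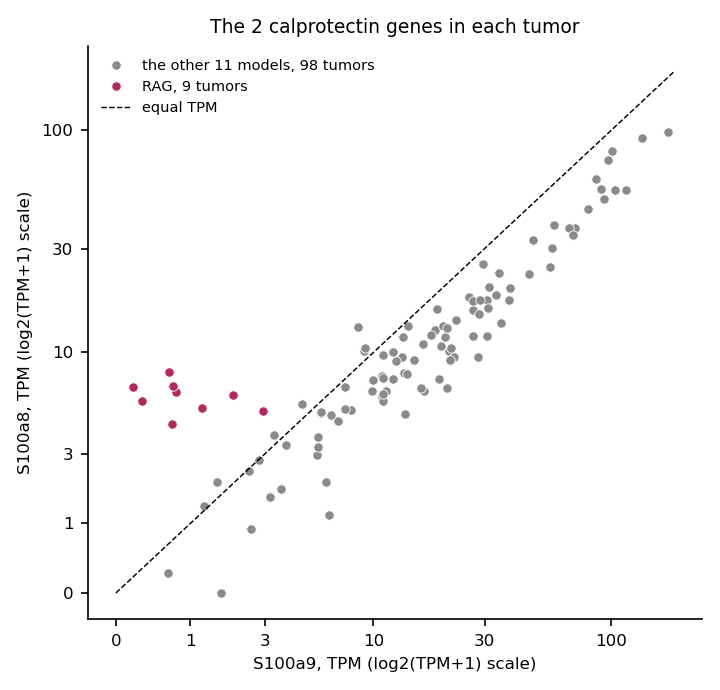
S100a8 (vertical axis) against S100a9 (horizontal axis), both in TPM on the log2(TPM+1) scale, with 1 point per tumor. The 9 RAG tumors lie above the dashed line of equal TPM with S100a9 under 3 TPM, and most of the 98 tumors of the other models lie below it.

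The ligands did not share 1 leading model. Csf3 was at 20.8, 18.9 and 23.0 TPM in Base 4T1, a line known for its G-CSF production, and at 6.56, 9.02 and 7.38 TPM in Base KLN205. EMT6 followed at 0.88, 2.37 and 0.58 TPM, and in the remaining 9 models no Base tumor exceeded 0.66 TPM. The values of 4T1, KLN205 and EMT6 did not overlap with each other.

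Cxcl2 and Cxcl3 were highest in MBT2. Base MBT2 tumors had 78.9, 67.1 and 69.9 TPM of Cxcl2 and 50.5, 40.2 and 37.8 TPM of Cxcl3, and neither overlapped with the next model. The next model was EMT6 for Cxcl2, at 16.9 ± 1.42 TPM (SD, n = 3), and Hepa 1-6 for Cxcl3, at 26.8, 27.9 and 26.4 TPM. In Hepa 1-6 Cxcl3 thus exceeded Cxcl2, which was at 5.01, 7.02 and 7.09 TPM there, whereas in RAG Cxcl2 was at 4.27 ± 0.340 TPM with Cxcl3 at 0.140 ± 0.106 TPM (SD, n = 3 each).

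Cxcl5 was highest in EMT6 at 23.3, 24.5 and 16.2 TPM, followed by KLN205 at 13.1, 8.94 and 10.98 TPM, without overlap. Cxcl1 was spread more evenly, from 23.8 ± 11.7 TPM in LL/2 (SD, n = 3) and 18.1 ± 2.55 TPM in MC38 (SD, n = 2) down to 3.64 ± 0.805 TPM in Hepa 1-6 and 0.390 ± 0.276 TPM in B16-F10 (SD, n = 3 each). The 7 models with the most Cxcl1 overlapped from each to the next. All 10 genes differed between the 12 models in Base tumors by limma's F test, with adjusted p between 4.82e-18 for Csf3 and 0.000147 for S100a8, as did 93.6% of the 17542 genes tested.

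**Figure D3:**
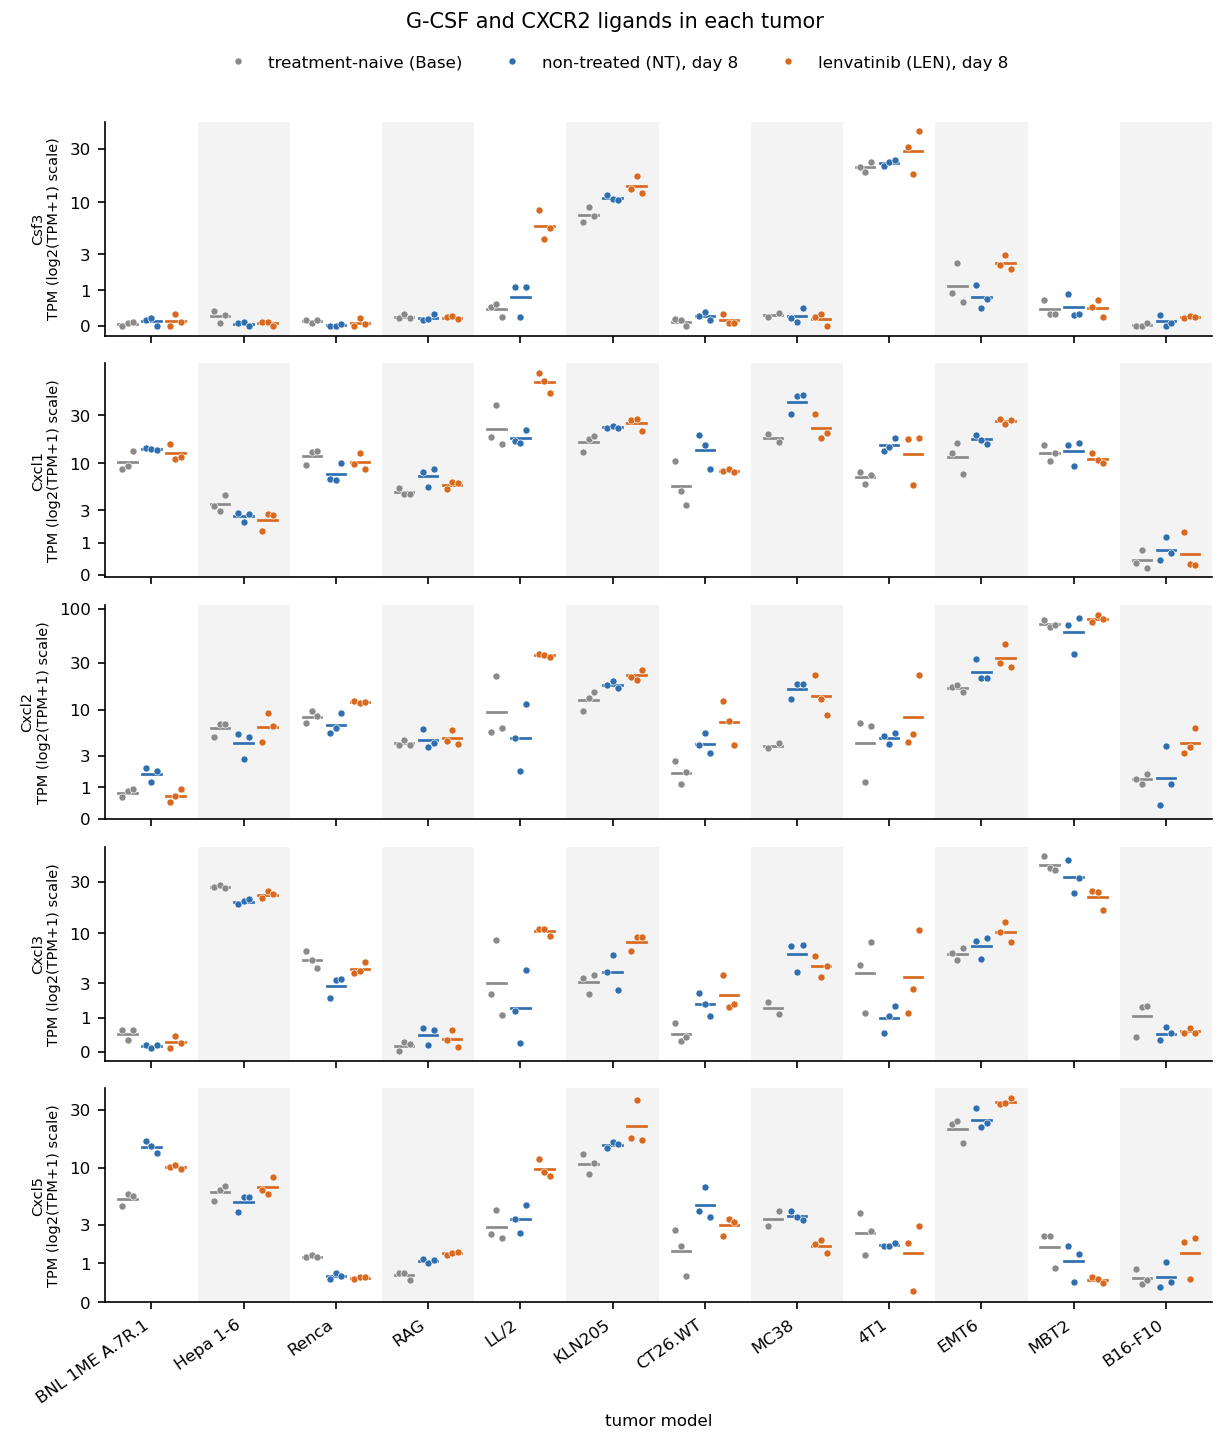
TPM of Csf3, Cxcl1, Cxcl2, Cxcl3 and Cxcl5 (vertical axes, log2(TPM+1) scale with ticks in TPM) in each tumor of the 12 models (horizontal axis). Points are tumors, gray for Base, blue for NT and orange for LEN, and bars are means on the log2 scale. Csf3 stands out in 4T1 and KLN205, Cxcl2 and Cxcl3 in MBT2 and Cxcl5 in EMT6 and KLN205.

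To ask how LEN changed these genes, LEN tumors were compared with NT tumors of the same day. Averaged over the 12 models, all 5 products and receptors were higher after LEN, as were Cxcl2, Cxcl3 and Csf3, and Cxcl1 and Cxcl5 were not called. Thus 8 of 10 members were called higher and 0 lower at an adjusted p of 0.05, against 13.7% of 17351 genes called higher and 9.87% called lower. The median change of the members was 0.43 on the log2(TPM + 1) scale, on which all differences below are given and which understates changes at low TPM, and that of all genes was -0.0019.

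Among the products, S100a9 was higher by 0.90 (SE 0.159, adjusted p = 1.67e-05) and its mean was higher in 11 of 12 models. S100a8 was higher by 0.73 (SE 0.159, adjusted p = 0.000331) and in 10 of 12 models. Retnlg was higher by 0.57 (SE 0.158, adjusted p = 0.00531) and in 11 of 12 models. Both receptors also rose. Cxcr2 was higher by 0.47 (SE 0.0596, adjusted p = 1.55e-08) in 11 of 12 models, and Csf3r by 0.37 (SE 0.0832, adjusted p = 0.000592) in 9 of 12.

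The ligands split. Cxcl2 was higher by 0.55 (SE 0.116, adjusted p = 0.000232) in 10 of 12 models, Cxcl3 by 0.40 (SE 0.102, adjusted p = 0.00247) in 9 of 12 and Csf3 by 0.30 (SE 0.0565, adjusted p = 3.8e-05). Csf3 averaged 1 TPM or more in both groups only in 4T1 and KLN205 and in LEN tumors alone in EMT6 and LL/2, while in the other 8 models it stayed under 1 TPM in every tumor of both groups. Cxcl1 differed by 0.014 (SE 0.0762, adjusted p = 0.929) and was higher in only 4 of 12 models, a direction that turned under 3 other scalings or pseudocounts. Cxcl5 differed by 0.07 (SE 0.0743, adjusted p = 0.534) and was higher in 6 of 12 models.

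**Figure D4:**
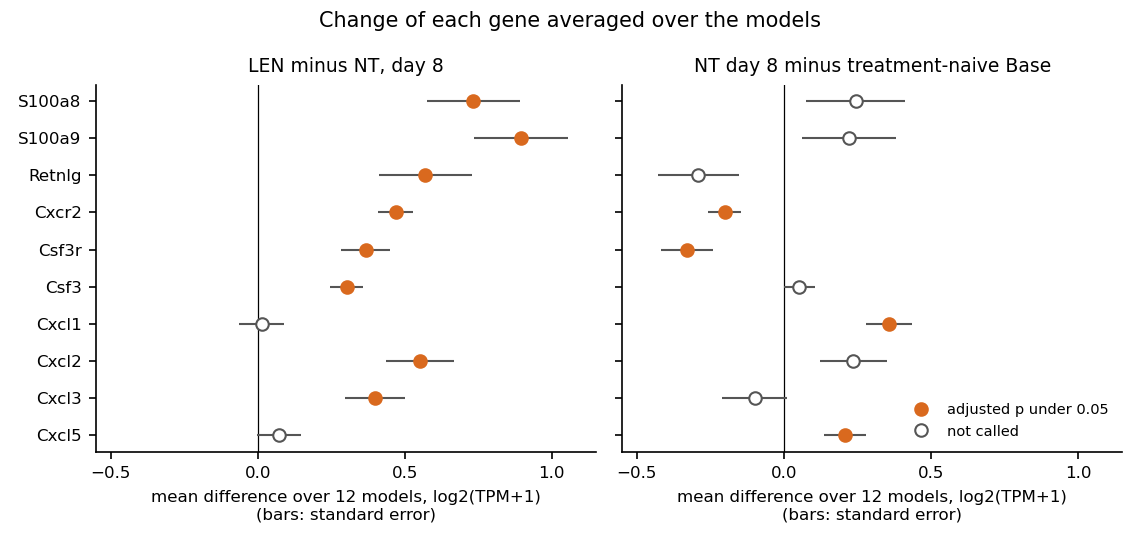
Mean difference of each gene over the 12 models on the log2(TPM+1) scale (horizontal axes) for LEN minus NT (left) and NT minus Base (right), with bars of 1 standard error. Filled points have an adjusted p under 0.05: 8 genes are higher after LEN, and in NT against Base 2 are higher and 2 are lower.

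The ligand differences depended in part on LL/2. Without that model the Csf3 difference fell to 0.15 (adjusted p = 0.0316), that of Cxcl2 to 0.36 (adjusted p = 0.0149) and that of Cxcl3 to 0.23, where it was no longer called (adjusted p = 0.0780). Cxcl5 then turned to -0.039 and Cxcl1 to -0.14, neither called (adjusted p = 0.782 and 0.213). The 5 products and receptors and Csf3 and Cxcl2 kept their calls in each of the 12 fits that left out a model and in each of the 72 fits that left out a tumor.

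In LL/2 all 10 members had a higher mean after LEN, and for 9 of them, all but Retnlg, the 3 LEN tumors lay above the 3 NT tumors. Over all genes of LL/2 with a mean of at least 1 TPM, 24.2% had a higher mean and 2.75% lay higher in every LEN tumor. S100a8 was at 4.94, 6.79 and 10.7 TPM in NT and at 73.9, 60.9 and 55.3 TPM in LEN, a difference of 2.97 (SE 0.244, adjusted p = 0.0190). S100a9 was at 13.8, 7.43 and 19.7 TPM in NT and at 96.7, 86.3 and 90.9 TPM in LEN (2.75, SE 0.298, adjusted p = 0.0412). No LEN tumor came close to an NT tumor for either gene.

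The ligands in LL/2 were also higher, and Cxcl1 was called. Cxcl1 was at 16.8, 16.2 and 21.7 TPM in NT and at 76.0, 64.5 and 49.3 TPM in LEN (1.73, SE 0.176, adjusted p = 0.0336). Cxcl2 was at 4.90, 1.85 and 11.4 TPM in NT and at 36.6, 35.6 and 33.8 TPM in LEN, a difference of 2.61 (SE 0.476, adjusted p = 0.104) that was not called with 3 tumors a group. Csf3 was at 1.13, 0.19 and 1.13 TPM in NT and at 8.42, 4.37 and 5.71 TPM in LEN, a range that overlaps with that of Base KLN205 tumors. Of all 15506 genes tested in LL/2, only 0.0709% were called higher, and these included S100a8, S100a9 and Cxcl1. The calls of S100a8, S100a9 and Cxcl1 were lost on leaving out any 1 of the LEN tumors, which leaves 2 tumors against 3, and those of S100a9 and Cxcl1 also without NT replicate 1, with differences of at least 2.74, 2.40 and 1.59 in every such fit. They were also lost with no minimum TPM (adjusted p between 0.0747 and 0.129), and those of S100a9 and Cxcl1 without the mean-variance trend (adjusted p = 0.0653 each), but held with all 72 tumors fitted together (adjusted p up to 0.00271).

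Renca showed an increase of the calprotectin genes that was called in every fit that left out a tumor. S100a8 was at 3.81, 3.27 and 3.39 TPM in NT and at 12.1, 7.91 and 10.5 TPM in LEN (1.3, SE 0.152, adjusted p = 0.00262). S100a9 was at 3.37, 5.57 and 3.86 TPM in NT and at 17.8, 14.0 and 21.7 TPM in LEN (1.84, SE 0.199, adjusted p = 0.00191). Cxcl2 was also called, at 5.56, 6.37 and 9.28 TPM in NT and 12.3, 11.8 and 12.1 TPM in LEN (0.72, SE 0.164, adjusted p = 0.0322), a call lost without any 1 of 5 of the 6 tumors (adjusted p up to 0.102). With all 72 tumors fitted together S100a9 kept its call (adjusted p = 0.0228) and S100a8 and Cxcl2 lost theirs (adjusted p = 0.144 and 0.321), as Cxcl2 did with no minimum TPM (adjusted p = 0.0725). In this model 4.91% of genes were called higher, and Retnlg stayed under 1 TPM in each of the 6 tumors.

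In EMT6, Cxcr2 was at 2.76, 1.97 and 1.94 TPM in NT and at 5.95, 6.40 and 5.18 TPM in LEN (1.09, SE 0.166, adjusted p = 0.0419), with 0.819% of genes called higher. This call was lost without any 1 of the 6 tumors, with differences between 1.03 and 1.21, and under 3 alternatives of filter, trend and scaling (adjusted p between 0.0757 and 0.114), and it held with all 72 tumors fitted together (adjusted p = 0.00156). The other 9 members also had higher means in EMT6 without being called, and S100a8, S100a9, Csf3r, Csf3, Cxcl1 and Cxcl5 did not overlap between NT and LEN. In EMT6 56.4% of all genes had a higher mean and 16.4% lay higher in every LEN tumor. In B16-F10, S100a9 was at 0.62, 3.21 and 1.28 TPM in NT and at 5.76, 4.67 and 6.28 TPM in LEN (1.39, SE 0.337, adjusted p = 0.0455), with 8.57% of genes called higher, and the call was lost without any 1 of 5 of its tumors (adjusted p up to 0.144) and under 4 alternative settings (adjusted p between 0.0566 and 0.108).

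BNL 1ME A.7R.1 was the model in which members were called in both directions. Csf3r was at 8.67, 10.4 and 7.76 TPM in NT and at 12.2, 15.9 and 17.1 TPM in LEN (0.69, SE 0.152, adjusted p = 0.0147), a call lost without NT replicate 4 (adjusted p = 0.0516). Retnlg was at 1.58, 0.45 and 0.73 TPM in NT and at 2.14, 3.81 and 11.4 TPM in LEN (1.62, SE 0.50, adjusted p = 0.0475), and without LEN replicate 5, the highest of them, the difference was 1.06 (adjusted p = 0.0666). This call was also lost without any 1 of 4 other tumors (adjusted p up to 0.129) and under 3 alternative settings (adjusted p between 0.0661 and 0.0862), and that of Csf3r with all 72 tumors fitted together (adjusted p = 0.0734). In this model 26.3% of genes were called higher and 5.21% lower.

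The 2 members called lower there were ligands. Cxcl5 was at 16.9, 15.3 and 13.3 TPM in NT and at 10.2, 10.6 and 9.83 TPM in LEN, and fell by 0.52 (SE 0.102, adjusted p = 0.00934), in every fit that left out a tumor. Cxcl2 was at 2.06, 1.24 and 1.84 TPM in NT and at 0.45, 0.67 and 0.93 TPM in LEN, and fell by 0.69 (SE 0.215, adjusted p = 0.0495), a call lost without any 1 of the 6 tumors (adjusted p up to 0.149). Neither ligand overlapped between NT and LEN, where 9.21% of all genes lay lower in every LEN tumor, and neither was called with all 72 tumors fitted together (adjusted p = 0.139 and 0.224).

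No member was called in the other 7 models, in which between 0% and 0.0778% of genes were called higher. In KLN205 all 10 members had a higher mean after LEN, and S100a9, Cxcr2, Csf3, Cxcl2, Cxcl3 and Cxcl5 lay higher in every LEN tumor than in every NT tumor, beside 41.8% of all genes with a higher mean and 6.79% higher in every LEN tumor. Cxcl3 differed most there, at 4.05, 6.04 and 2.51 TPM in NT and at 6.60, 9.14 and 9.07 TPM in LEN (0.88, SE 0.258, adjusted p = 0.209). MC38 and CT26.WT by contrast had ligands that lay lower in every LEN tumor, as did 6.41% and 7.58% of all genes in these models. In MC38, Cxcl1 was at 31.03, 45.9 and 46.9 TPM in NT and at 30.7, 17.9 and 20.2 TPM in LEN (-0.83, SE 0.231, adjusted p = 0.327), and Cxcl5 was at 4.06, 3.6 and 3.35 TPM in NT and at 1.85, 2.03 and 1.41 TPM in LEN (-0.76, SE 0.148, adjusted p = 0.260). In CT26.WT, Cxcl1 was at 19.4, 15.3 and 8.78 TPM in NT and at 8.34, 8.68 and 8.19 TPM in LEN (-0.66, SE 0.254, adjusted p = 0.536), while S100a8 was at 10.2, 11.9 and 6.24 TPM in NT and at 19.9, 80.8 and 12.7 TPM in LEN (1.5, SE 0.637, adjusted p = 0.555).

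Hepa 1-6 had the highest Retnlg after LEN, at 60.9, 62.6 and 43.9 TPM against 14.4, 18.7 and 26.8 TPM in NT (1.46, SE 0.235, adjusted p = 0.0693), which did not overlap but was not called. In this model 69.9% of all genes had a higher mean and 24.6% lay higher in every LEN tumor. The LEN values of Retnlg overlapped with those of Base, at 58.7, 24.4 and 41.0 TPM. S100a8 in Hepa 1-6 was at 5.07, 1.83 and 38.2 TPM in NT, so 1 NT tumor exceeded all 3 LEN tumors at 6.75, 9.23 and 9.52 TPM. In 4T1 the LEN tumors were far apart, with S100a9 at 38.0, 16.6 and 115 TPM and Csf3 at 31.4, 17.9 and 42.6 TPM. The lowest of each was LEN replicate 4, the tumor with the lowest share of TPM on protein-coding genes.

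In RAG the mean after LEN was lower for 4 of the 5 products and receptors, all but S100a9. Of these, Cxcr2 reached at most 0.37 TPM in NT and 0.34 TPM in LEN. S100a8 was at 8.02, 6.81 and 6.17 TPM in NT and at 5.15, 4.37 and 5.33 TPM in LEN, without overlap and without a call (-0.42, SE 0.136, adjusted p = 0.438). Of all genes in RAG, 44.2% had a higher mean after LEN and 9.06% lay lower in every LEN tumor. Over the models, 102 of 120 pairs of member and model had a mean of at least 1 TPM. In 39 of these (38.2%) every LEN tumor lay above every NT tumor, and in 7 (6.86%) every LEN tumor lay below. The corresponding shares over all such pairs of gene and model were 13.5% and 10.9%.

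**Figure D5:**
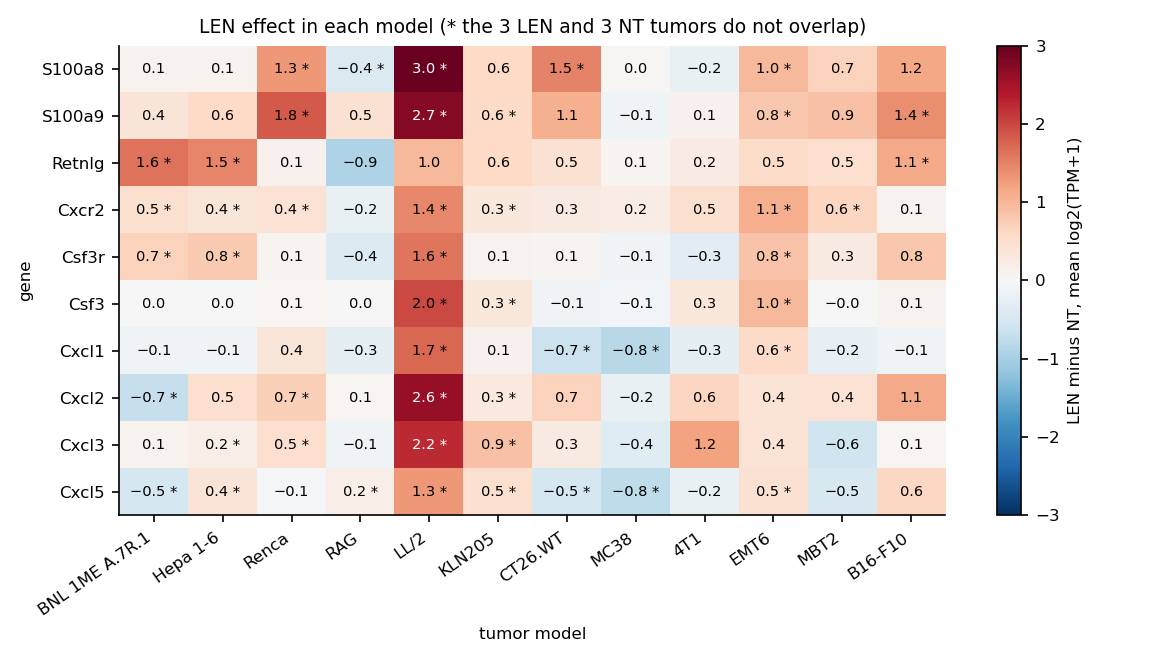
Difference between the means of LEN and NT tumors in log2(TPM+1) (color and printed value) for the 10 genes (rows) in the 12 models (columns). An asterisk marks pairs in which the 3 LEN and the 3 NT tumors do not overlap, whatever their TPM. LL/2 is higher for every gene, and Cxcl1 and Cxcl5 are lower in MC38 and CT26.WT and higher in LL/2 and EMT6.

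The LEN effect itself was tested for a difference between models. It differed for 8 of 10 members by limma's F test over the 12 models, against 35.3% of all genes. The adjusted p was 1.62e-07 for Csf3, 3.08e-05 for Cxcl1, 0.00012 for Cxcl5, 0.000679 for Cxcl3, 0.00093 for Cxcr2, 0.00176 for Csf3r, 0.00213 for Cxcl2 and 0.0183 for S100a8. It was 0.0961 for S100a9 and 0.229 for Retnlg, which does not show that their effects were alike.

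Other genes of neutrophils and of the pathway were read from lists drawn up for this purpose. Of 20 other mature neutrophil genes, 14 passed the filter, 11 were higher after LEN and 0 lower, with a median of 0.59. Over all genes tested, for this and the lists below, 13.7% were called higher and 9.87% lower. The genes called higher included Lcn2 (0.99, SE 0.131), which encodes an iron-siderophore-binding granule protein, Acod1 (0.76, SE 0.118), the itaconate-producing enzyme, and Clec4d (0.72, SE 0.0857), a lectin receptor of myeloid cells. Ly6g and Cxcr1 of this list were at 0 in most tumors. In Base the summed list was highest in RAG (293 to 381 TPM), where Cxcr2 and S100a9 were lowest. In RAG it was at 301 to 376 TPM in NT and at 395 to 463 TPM in LEN, so it did not follow the members there. Of 10 granule genes of neutrophil precursors 4 passed the filter, and Chil3, also a monocyte gene, was higher by 0.90 (SE 0.118) while Lyz2 fell by 0.21 (SE 0.0784).

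Of 17 cytokine, receptor and NF-kB genes that act upstream of the ligands, 15 passed the filter, 12 were higher and 0 lower, with a median of 0.22. Il1rn, which encodes the IL-1 receptor antagonist, was higher by 0.97 (SE 0.0969) and Il1b by 0.54 (SE 0.118). The NF-kB feedback genes Tnfaip3 and Nfkbiz were higher by 0.41 (SE 0.0627) and 0.28 (SE 0.0395). Among 8 colony-stimulating factors and receptors other than G-CSF and its receptor, 7 were tested. Csf2rb2 and Csf2rb, which encode beta chains of the GM-CSF receptor family, were each higher by 0.24, and Csf1r, the macrophage growth factor receptor, fell by 0.45 (SE 0.0629). Of 5 further chemokines, chemokine-like factors and chemokine sinks, 3 were tested, of which Mif was higher by 0.26 (SE 0.0492) and Pf4 fell by 0.24 (SE 0.0836). Of 4 calprotectin receptors, Bsg was higher by 0.37 (SE 0.040) and the other 3, Tlr4 among them, were not called.

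Markers of other cells also changed after LEN, in both directions. Of 7 monocyte markers, 4 were higher and 0 lower after LEN, namely Ly6c2 (1.02, SE 0.148), Plac8 (0.67, SE 0.104), Cd14 (0.38, SE 0.0629) and Vcan (0.23, SE 0.0582), and their summed level ranged from 11.1 to 396 TPM in NT and from 66.8 to 431 TPM in LEN. Of 8 macrophage markers, 7 were lower, led by Mrc1 (-0.53, SE 0.0902), though their sum was higher in every LEN tumor of BNL 1ME A.7R.1 (2194 to 2431 TPM in NT and 3531 to 4952 TPM in LEN) and B16-F10 (755 to 801 and 1055 to 1235 TPM). In these 2 models 38.1% and 20.3% of all genes lay higher in every LEN tumor. All 5 red blood cell markers were lower, led by Hbb-bs (-2.43, SE 0.168), as were all 6 endothelial markers tested, led by Cdh5 (-1.17, SE 0.0614). Of 5 fibroblast markers Dcn was higher by 0.36 (SE 0.102) and Col1a1 fell by 0.29 (SE 0.0966). None of the 2 platelet and 3 eosinophil and mast cell markers tested was called on the average over models. The LEN effect on the latter 3 (Cpa3, Mcpt4 and Cma1) differed between models by limma's F test (adjusted p between 1.96e-06 and 0.000139), as for 35.3% of all genes. Of 11 keratinocyte markers 7 were tested and 2 were higher, Sprr1a (0.92, SE 0.174) and Krt14 (0.59, SE 0.205), and Krt1, Krt6a, Ivl, Lor and Flg were at 0 in most tumors of each group.

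Because keratinocytes can express calprotectin, the summed keratinocyte markers are given beside S100a8 and S100a9. Over all models the sum was between 0 and 1886 TPM in NT (median 5.07) and between 0.26 and 2964 TPM in LEN (median 23.8). In Renca it was between 1.61 and 3.89 TPM in NT and between 17.0 and 25.4 TPM in LEN, so there every LEN tumor lay above every NT tumor, as for S100a8 and S100a9. In LL/2 it was between 1.32 and 2.44 TPM in NT and between 0.82 and 4.43 TPM in LEN, which overlap, whereas S100a8 and S100a9 did not. It also lay higher in every LEN tumor in BNL 1ME A.7R.1 (4.93 to 5.90 TPM in NT and 79.4 to 125 TPM in LEN), RAG (1.45 to 1.94 and 2.92 to 18.4 TPM), 4T1 (20.1 to 28.4 and 29.6 to 34.9 TPM) and Hepa 1-6 (236 to 249 and 325 to 379 TPM), where S100a8 overlapped or, in RAG, lay lower. In B16-F10 it was between 0 and 0.06 TPM in NT and between 0.26 and 72.5 TPM in LEN, without overlap. The summed monocyte markers of B16-F10 did not overlap either, at 11.1 to 34.1 TPM in NT and 94.9 to 103 TPM in LEN, nor did those of BNL 1ME A.7R.1, at 254 to 281 and 385 to 431 TPM, while those of EMT6 overlapped. In Renca and LL/2 the monocyte sum lay lower in every LEN tumor than in every NT tumor, at 124 to 130 against 166 to 171 TPM and at 211 to 218 against 225 to 260 TPM. Of all genes, 19.4% in Renca and 23.7% in LL/2 lay lower in every LEN tumor. The share that lay higher was 38.1% in BNL 1ME A.7R.1, 24.6% in Hepa 1-6 and 20.3% in B16-F10. It was 13.3% in Renca, 5.32% in 4T1 and 5.09% in RAG. The part of monocytes and keratinocytes in the differences of S100a8 and S100a9 was not tested.

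Growth without treatment was examined by comparing NT tumors at day 8 with Base tumors. This comparison shares the NT tumors with the one above, so the 2 are not independent. Averaged over the models, 2 of 10 members were higher and 2 were lower, against 17% and 11.5% of 17428 genes, and the median change of the members was 0.13 beside 0.013 for all genes. Both receptors were lower. Cxcr2 fell by 0.20 (SE 0.0555, adjusted p = 0.00473, lower in 9 of 12 models) and Csf3r fell by 0.33 (SE 0.0881, adjusted p = 0.00376, lower in 8 of 12). The chemokines Cxcl1 and Cxcl5 were higher, Cxcl1 by 0.36 (SE 0.078, adjusted p = 0.000432, higher in 9 of 12 models) and Cxcl5 by 0.21 (SE 0.0715, adjusted p = 0.0239, higher in 8 of 12). Cxcl5 was not called with a pseudocount of 0.1, after rescaling over protein-coding genes or after upper-quartile rescaling (adjusted p = 0.120, 0.161 and 0.0872), nor was Cxcr2 with a pseudocount of 0.1 (adjusted p = 0.0528). The remaining 6 members were not called, with changes from -0.29 for Retnlg (adjusted p = 0.108) to 0.24 for S100a8 (adjusted p = 0.289).

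The calls of Cxcr2 and Cxcl5 rested on few models. Without EMT6 the Cxcr2 difference was -0.14 (adjusted p = 0.0749). Without BNL 1ME A.7R.1 that of Cxcl5 was 0.10 (adjusted p = 0.341), without CT26.WT it was 0.12 (adjusted p = 0.175), and its call was also lost without KLN205 or RAG (adjusted p = 0.0793 and 0.0588). Conversely Retnlg was called lower without 4T1 (-0.40, adjusted p = 0.0324) or LL/2 (-0.38, adjusted p = 0.0388), and Cxcl2 was called higher without LL/2 (0.33, adjusted p = 0.00932). Cxcl1 and Csf3r kept their calls in the fits that left out any model. The difference between NT and Base itself differed between models for 5 of 10 members (Cxcl1, Cxcl2, Cxcl3, Cxcl5 and Cxcr2) by limma's F test, against 66.5% of all genes.

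Within models, Cxcl5 in BNL 1ME A.7R.1 was at 4.54, 5.89 and 5.70 TPM in Base and at 16.9, 15.3 and 13.3 TPM in NT (1.34, SE 0.128, adjusted p = 0.00115, with 23.6% of genes called higher), so that all 3 LEN tumors, at 9.83 to 10.6 TPM, lay between Base and NT. In EMT6, Cxcr2 fell from 5.19, 3.91 and 5.04 TPM to 2.76, 1.97 and 1.94 TPM (-0.83, SE 0.176, adjusted p = 0.0183), and Csf3r fell from 15.1, 13.3 and 16.6 TPM to 9.11, 6.44 and 9.0 TPM (-0.81, SE 0.155, adjusted p = 0.0133), with 4.51% of genes called lower. The LEN tumors of EMT6, at 14.3, 16.2 and 15.6 TPM of Csf3r, were in the range of its Base tumors. In KLN205, where 28.3% of genes were called higher, Csf3 (0.48, SE 0.123), Cxcl1 (0.47, SE 0.137) and Cxcl5 (0.49, SE 0.137) were called higher, with adjusted p of 0.0303, 0.0447 and 0.0385. No member was called in the other 9 models. Every NT tumor lay above every Base tumor in 17.9% of the 95 pairs of member and model with a mean of at least 1 TPM and below in 14.7%, against 17.1% and 13.9% over all genes.

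Of the lists, 4 of 14 other mature neutrophil genes were lower in NT than in Base and 0 higher, among them Slfn4 (-0.43, SE 0.0942), Il1r2 (-0.31, SE 0.0873) and Hdc (-0.26, SE 0.0964). Of the 15 upstream genes tested, 3 were lower, Tnf (-0.42, SE 0.0893), Il17ra (-0.18, SE 0.044) and Zc3h12a (-0.18, SE 0.0583). Among the colony-stimulating factors and receptors, Csf2rb2 (-0.42, SE 0.0687), Csf2rb (-0.39, SE 0.075) and Csf2ra (-0.23, SE 0.0576) were lower. Monocyte markers were lower for 3 of 7, led by Ly6c2 (-0.81, SE 0.161), as were 3 of 3 eosinophil and mast cell markers tested, 3 of 7 endothelial, 2 of 5 fibroblast and 3 of 8 macrophage markers, of which 1 other was higher. Of the 5 red blood cell, 2 platelet and 6 keratinocyte markers tested, 0 were called.

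To ask whether models with more ligand RNA had more receptor RNA, the model means of log2(TPM + 1) were correlated over the 12 models in Base, NT and LEN tumors, in a family of 15 relations. The points share the TPM scale and the composition of the same tumors. Cxcl5 and Cxcr2 had r = 0.810 (permutation p = 0.0013, adjusted p = 0.0195) and rho = 0.734 (permutation p = 0.00855, adjusted p = 0.0427) in Base, and r = 0.765 (permutation p = 0.00388, adjusted p = 0.0271) and rho = 0.713 (permutation p = 0.0121, adjusted p = 0.0453) in NT. Without EMT6 and KLN205, the models farthest from the median of Cxcl5, r was 0.593 (permutation p = 0.0716) in Base and 0.525 (permutation p = 0.120) in NT. These fits have fewer models and a narrower range of Cxcl5, so they do not settle how far the relations rested on those models. In LEN tumors, Cxcl1 and Cxcr2 had r = 0.747 (permutation p = 0.00542, adjusted p = 0.0271) and rho = 0.776 (permutation p = 0.00451, adjusted p = 0.0338), and without B16-F10 and LL/2 r was 0.618 (permutation p = 0.0572). The other 9 relations of a CXCR2 ligand with Cxcr2 had r between 0.436 and 0.680 and were not called by r, while Cxcl3 in Base was called by rho (rho = 0.783, permutation p = 0.00395, adjusted p = 0.0338). Leaving out the 2 models farthest from the median of the ligand also raised r for some of them, for Cxcl2 in LEN to 0.883 (permutation p = 0.00084) and for Cxcl3 in LEN to 0.864 (permutation p = 0.00174). Csf3 fell into separate clusters, with 4T1 and KLN205 above the rest in Base and NT, so no r with Csf3r over all models is given there. Within the other 10 models r was 0.543 (permutation p = 0.109) in Base and 0.118 (permutation p = 0.757) in NT. In LEN tumors, where LL/2 and EMT6 lay between, r over the 12 models was 0.116 (permutation p = 0.709, adjusted p = 0.709) and rho was -0.0070 (permutation p = 0.992, adjusted p = 0.992), and r was 0.510 (permutation p = 0.150) without 4T1 and KLN205.

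The genes most like 4 of the members were sought by Pearson's r over the 36 group means of log2(TPM + 1) among 17418 genes, as a description over groups that share models. For S100a8 they were Stfa2l1 (r = 0.874), Gm5483 (0.838), Trem1 (0.781), Ptgs2 (0.777) and Il1b (0.742). For Cxcr2 they were Kctd11 (r = 0.841), Gm5483 (0.821), Bcar3 (0.800), Casp6 (0.794) and Stfa2l1 (0.790), while among the members its r with S100a9 was 0.885. For Cxcl1 they were Hist1h4n (r = 0.837), Ggta1 (0.831), Hist1h2an (0.823), Gm43761 (0.821) and S100a6 (0.810), and for Csf3 they were Epha1 (r = 0.933), Kdf1 (0.929), Gm36938 (0.928), Prss22 (0.924) and Tnk1 (0.913). Retnlg was the product least like S100a8, with r = 0.174.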

How the data were processed

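RNA was measured in tumors of 12 models. The authors sequenced libraries depleted of ribosomal RNA, used FastQC 0.11.5 for read quality, Trimmomatic 0.36 for trimming, STAR 2.5.2b for mapping to mm10 with Ensembl 88 and RSEM 1.2.31 for quantification. They deposited TPM for 50686 genes. NovaSeq and NextSeq instruments were used, and which tumor ran on which is not given in the sources used here. Groups were taken from the labels.

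Values were analyzed as log2(TPM + 1) with limma 3.58.1 in R 4.3.3 (trend, genes whose TPM averaged 1 or more over the fitted tumors, Benjamini-Hochberg adjustment over all genes tested, threshold 0.05). All 72 day 8 tumors, or all 71 untreated tumors, entered the fits over models; within a model its tumors were fitted alone. Relations used 100000 permutations, two-sided. Tumors carry no label of shared batch, and p-values measure the spread between the tumors of a group. No pair of tumors held over 95 percent identical values (0 pairs). Gene types and positions are from GENCODE M21 and promoters from RefSeq, with an entry for 8 of 10 members. The code was tested on simulated data. Members and lists were chosen with earlier results of these data known. From each list, up to 4 called genes with the largest change are named, apart from 1 that is not reported here, and for S100a8, Cxcr2, Cxcl1 and Csf3 the 5 most similar genes. Alternatives changed the pseudocount, filter, scaling, trend and block, and left out tumors and models.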

Additional observations from a re-analysis of the deposited data

Results flagged for a closer look

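The difference between LEN and NT tumors was itself different between the 12 models for 8 members by limma's F test, against 35.3% of all genes tested: adjusted p = 1.62e-07 for Csf3, 3.08e-05 for Cxcl1, 0.00012 for Cxcl5, 0.000679 for Cxcl3, 0.00093 for Cxcr2, 0.00176 for Csf3r, 0.00213 for Cxcl2 and 0.0183 for S100a8. Csf3 was tested within 4 models and ranged from 0.33 in 4T1 to 1.99 in LL/2 (neither called there), and Cxcl1 from -0.83 in MC38 to 1.73 in LL/2.

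The difference between NT and Base tumors also differed between models for 5 members, with adjusted p = 5.97e-05 for Cxcl5, 0.000551 for Cxcl1, 0.00126 for Cxcl3, 0.00223 for Cxcr2 and 0.0103 for Cxcl2, against 66.5% of all genes tested. With no minimum TPM, for Cxcl5 every NT tumor lay above every Base tumor in 4 models and below in 1, and for Cxcr2 above in 2 models and below in 4. The 2 models were RAG (mean 0.137 TPM in Base and 0.327 TPM in NT) and CT26.WT (0.517 and 1.11 TPM), near the floor. Over all pairs of gene and model with a mean of at least 1 TPM, 17.1% lay above and 13.9% below. Within single models these shares reached 45.8% above in KLN205 and 31.9% below in CT26.WT.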

How the results depend on the processing

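The 8 calls of members after LEN, averaged over models, held with a pseudocount of 0.1, without a filter, with both rescalings and without the trend, and, where the gene passed it, with a minimum mean TPM of 5. Cxcl1, not called, turned to -0.020 with a pseudocount of 0.1, -0.0020 over protein-coding genes and -0.0028 with upper-quartile rescaling, and ranged from -0.14 to 0.091 on leaving out a tumor or a model, as Cxcl5 did from -0.039 to 0.15. Genes called lower after LEN numbered 1712, 2645 after rescaling over protein-coding genes and 3163 after upper-quartile rescaling. Genes called higher (2371) ranged from 1440 to 3262 on leaving out a tumor or a model, the lowest without BNL 1ME A.7R.1.

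Within models, the 10 calls of members higher became 6 without the trend, 3 without a filter, 17 over protein-coding genes and 14 with all tumors fitted together. The 2 calls lower became 0 with all tumors fitted together and 1 with a minimum of 5 TPM or a pseudocount of 0.1, and ranged from 1 to 2 without a tumor. The calls of genes lower, 2468 over the models, became 6001 with all tumors fitted together, 5407 over protein-coding genes and 4015 with upper-quartile rescaling.

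In NT against Base, genes called higher (2971) became 1037 over protein-coding genes and 1419 with upper-quartile rescaling and ranged from 1765 to 3891 on leaving out a tumor or a model, with 1950 without EMT6 and 1765 without KLN205. Those called lower (2002) became 951 with a minimum of 5 TPM, 3406 over protein-coding genes and 3524 with upper-quartile rescaling. Csf3 turned to -0.0050 over protein-coding genes, and Cxcl3 ranged from -0.25 to 0.011 on leaving out a tumor or a model. Retnlg was called lower over protein-coding genes (-0.42, adjusted p = 0.0421). The 3 relations called became 7 with a pseudocount of 0.1. The cause of these changes was not tested.

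Replicate numbers do not pair the tumors: 0 of 20 same-numbered LEN and NT pairs and 1 of 25 NT and Base pairs had a correlation of deviations over 0.1. With the replicate number as a block, only 40 and 50 tumors were in pairs. Genes called higher after LEN became 1243, and in NT against Base 1057 were higher and 809 lower. S100a8 (0.50, adjusted p = 0.0773) and Cxcl3 (0.37, adjusted p = 0.107) were not called after LEN in that fit, nor was any member in NT against Base. TPM gives no depth, so levels near 0 have unknown precision.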

Other observations

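Single tumors lay far from the others of their group. In NT Hepa 1-6, 1 tumor had 38.2 TPM of S100a8 and 58.0 TPM of S100a9, and the other 2 had at most 5.07 and 5.73 TPM. In LEN CT26.WT, 1 tumor had 80.8 TPM of S100a8 and 100.3 TPM of S100a9, and the other 2 had at most 19.9 and 38.2 TPM. In Base LL/2, 1 tumor had 25.6 TPM of S100a8, 22.2 TPM of Cxcl2 and 37.3 TPM of Cxcl1, each above the other 2 tumors, which had at most 7.69, 6.43 and 18.4 TPM.

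In MBT2, the model with the highest Cxcl2 and Cxcl3 before treatment, the values after LEN overlapped with those of NT for both genes. After LEN, Cxcl3 was at 24.9, 24.3 and 16.5 TPM, with 46.7, 23.7 and 32.4 TPM in NT and 50.5, 40.2 and 37.8 TPM in Base, while Cxcl2 was at 74.6, 88.2 and 79.9 TPM after LEN and at 70.1, 36.3 and 82.6 TPM in NT. Neither difference between LEN and NT was called (adjusted p = 0.367 and 0.545 by limma).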
